A study of Homo sapiens with 15 samples.

Results

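The genes described here make, remove and sense extracellular adenosine. They are NT5E, ENTPD1 and ADA, which encode enzymes, and ADORA1, ADORA2A and ADORA2B, which encode receptors. The 6 genes were taken by symbol from the expression values of 2 clear cell renal cell carcinoma (ccRCC) lines, and all 6 of 6 were found among the 16296 genes of CAKi-1 and among the 16188 genes of 786O. They were chosen with their knockout and wild-type values already known, so their differences between the genotypes are given as descriptions, with no p. How many met the thresholds used for all genes is given once, and nothing is read from it.

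CAKi-1 is a human ccRCC line with wild-type VHL and 786O is a human ccRCC line with mutant VHL. In both, the gene for the secreted protein ANGPTL4 was edited by CRISPR-Cas9, transfected directly as protein with a single guide RNA, and clones that had lost ANGPTL4 mRNA were combined to give the A4KO cells. Cells were harvested in log phase, and their RNA gave 9 libraries for CAKi-1 (4 WT, 5 A4KO) and 6 for 786O (3 of each genotype). The 786O WT cells were combined from clones that had kept ANGPTL4. For CAKi-1 the sources differ, since the methods name unedited parental cells and the series description names combined clones. If the methods are right, cloning and transfection separate the CAKi-1 genotypes along with the loss of ANGPTL4, and these cannot be told apart. The culture medium is RPMI in the sample labels and DMEM in the methods.

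Adenosine outside the cell comes mainly from released ATP. ENTPD1 (CD39) takes ATP and ADP to AMP, NT5E (CD73) takes AMP to adenosine, and ADA deaminates adenosine to inosine. The receptor of ADORA1 couples to Gi proteins, which lower cAMP, and the receptors of ADORA2A and ADORA2B couple to Gs proteins, which raise it. In the kidney adenosine adjusts the blood flow of the glomerulus, and in tumors it is known for restraining T cells and natural killer cells.

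Expression is given in TPM, a unit that scales reads by transcript length and then by the total of the library. The number of reads behind a TPM value is not kept, so the depth that each library reached is unknown. The methods state only a nominal depth for all samples, at which the lowest ADORA2A values of CAKi-1 WT would rest on very few reads, and no counting error is given. Log2 fold changes are A4KO over WT on the log2(TPM + 1) scale, on which changes of low genes come out too small, with a standard error (SE) from limma. Values of single libraries are listed in the order of the replicate numbers. A gene was called when its log2 fold change was at least 1 in either direction and its adjusted p, by Benjamini-Hochberg over all genes of the line, was at most 0.05. No source states that the replicates were separate cultures, so p measures only the spread between these libraries, which may be technical.

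The targeted gene followed the labels. ANGPTL4 was at 71.7 to 86.9 TPM in CAKi-1 WT and 2.87 to 7.26 TPM in CAKi-1 A4KO, with a log2 fold change of -3.96 (SE 0.25, limma adjusted p = 1.2e-05). In 786O it was at 17.6 to 20.6 TPM in WT and 1.86 to 2.19 TPM in A4KO, with a log2 fold change of -2.69 (SE 0.074, limma adjusted p = 1.57e-06). Exact two-sided permutation of the libraries gave p = 0.0159 in CAKi-1 and p = 0.1 in 786O, the smallest that 3 against 3 allows. CAKi-1 A4KO replicates 1 and 4 stood apart from replicates 2, 3 and 5. ANGPTL4 was at 7.26 and 6.47 TPM in replicates 1 and 4, and at 2.87, 2.87 and 2.90 TPM in replicates 2, 3 and 5. Its log2 fold change was -4.36 (SE 0.072) with replicates 2, 3 and 5 alone. The root mean square difference of log2(TPM + 1) over genes was 0.342 to 0.403 between these sets, against 0.178 within the first and 0.182 to 0.211 within the second. For the 6 genes, values with A4KO replicates 2, 3 and 5 alone are therefore given beside those over all 5. Among the CAKi-1 WT libraries, replicate 4 differed by 0.315, 0.304 and 0.231 from replicates 1, 2 and 3. Those differed from each other by 0.165 to 0.226. WT replicate 4 was also the WT library nearest to each A4KO library. Genes of the mitochondrial genome held 7.47% to 8.16% of the summed TPM in 786O WT and 9.46% to 10.0% in 786O A4KO. In CAKi-1 the ranges overlapped, at 6.39% to 7.88% in WT and 6.58% to 8.00% in A4KO. The part of this in the values below was not tested. PAX8, a renal epithelial transcription factor, was at 172 TPM in CAKi-1 WT and 231 TPM in 786O WT. The summed renal epithelial markers (8 of 9 listed genes in CAKi-1, 9 of 9 in 786O) were lower in A4KO, at 801 to 1256 TPM against 2237 to 3092 TPM in CAKi-1 and at 982 to 993 TPM against 1411 to 1423 TPM in 786O. CA9, a ccRCC marker, was not among the CAKi-1 values used here and at 7.54 TPM in 786O WT and 0.287 TPM in 786O A4KO, whereas EGLN3, of the same list, was at 26.5 and 74.1 TPM in 786O WT and A4KO. The 4 measured ccRCC markers of 5 summed to 3137 to 3351 TPM in CAKi-1 WT and 2057 to 2544 TPM in A4KO, nearly all of it VIM, and all 5 summed to 4738 to 4958 TPM and 3650 to 3687 TPM in 786O.

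Cells that carry NT5E, ENTPD1 or ADORA2A in tissue, such as leukocytes and endothelium, were looked for by their markers. PTPRC (CD45) was between 0.208 and 0.372 TPM on average in all 4 groups, and CD3E, MS4A1 and NKG7 were not among the values of either line used here. The leukocyte list, measured for 7 of 12 genes in CAKi-1, summed to 59.0 to 61.9 TPM in WT and 53.8 to 65.6 TPM in A4KO, and almost all of it was CD68, a lysosomal protein. In 786O, with 6 of 12 genes, it summed to 46.7 to 48.0 TPM in WT and 21.3 to 22.7 TPM in A4KO. The endothelial genes VWF, CDH5 and KDR were likewise not among them, and the endothelial list summed to 1.39 to 2.39 TPM in CAKi-1 WT and 3.02 to 6.69 TPM in A4KO with 3 of 8 genes measured, and to 2.99 to 5.05 TPM and 2.49 to 3.32 TPM in 786O with 5 of 8. In CAKi-1 PECAM1 went from a mean of 0.36 TPM in WT to 3.29 TPM in A4KO, EMCN from 1.04 to 1.19 TPM and ESAM from 0.532 to 0.248 TPM. The fibroblast and pericyte list summed to 48.3 to 79.8 TPM in CAKi-1 WT and 70.6 to 96.1 TPM in A4KO with 7 of 8 genes measured, and to 18.0 to 21.7 TPM and 19.1 to 23.3 TPM in 786O with 6 of 8. In CAKi-1 the means of COL1A1 (10.2 and 36.2 TPM) and PDGFRB (14.5 and 18.7 TPM) were higher in A4KO. Those of RGS5 (35.7 and 23.2 TPM) and LUM (3.63 and 1.58 TPM) were lower. The part of these marker differences in the values below was not tested.

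NT5E was the most abundant of the 6 genes in CAKi-1, and the gene with the largest difference between 786O genotypes. It lies on chromosome 6 (hg38, 85449584 to 85495791, plus strand, 9 exons in its canonical transcript, GENCODE ENSG00000135318.12). The 250 bases before the transcription start of NT5E and of ADORA2B, both lower in 786O A4KO, are printed from RefSeq (GRCh38.p14), with TGACG, the core of the element to which cAMP-responsive factors bind, in capitals.
NT5E, chr6:85449833-85450082, plus strand: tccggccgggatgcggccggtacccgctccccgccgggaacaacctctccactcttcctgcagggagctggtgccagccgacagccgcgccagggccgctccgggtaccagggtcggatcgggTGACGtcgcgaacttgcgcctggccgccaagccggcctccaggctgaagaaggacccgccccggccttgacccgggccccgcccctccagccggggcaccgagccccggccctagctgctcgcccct
ADORA2B, chr17:15944880-15945129, plus strand: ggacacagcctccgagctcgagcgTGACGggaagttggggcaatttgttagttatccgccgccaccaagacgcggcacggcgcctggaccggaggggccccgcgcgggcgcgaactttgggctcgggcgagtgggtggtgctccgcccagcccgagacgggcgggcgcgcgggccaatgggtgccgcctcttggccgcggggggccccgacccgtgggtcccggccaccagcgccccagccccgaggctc
TGACG begins 127 bases before the start in NT5E and 226 bases before it in ADORA2B. Searched on both strands, it occurs in 21.2% of the 35116 windows of the same length, and the full element TGACGTCA, which contains it, occurs in 1.65% of windows and in neither of the printed ones. GGGCGG, the box to which SP1 binds, occurs in both printed windows, in those of ADORA1 and ADA, which were higher in 786O A4KO, and in 42.6% of all. TGACG was also found in 2 of the 5 windows of ENTPD1, which was higher in 786O A4KO, and in no window of ADORA1 or ADA. These matches describe the letters only, and the promoters of 5 of the 6 genes were used here, that of ADORA2A being not analysed. The GENCODE start of NT5E lies further upstream than the RefSeq start, before the printed window.

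In 786O, WT replicates 1 to 3 had 44.8, 47.2 and 44.8 TPM of NT5E, and A4KO replicates 1 to 3 had 12.5, 11.4 and 13.2 TPM. All 3 A4KO libraries were far below all 3 WT libraries, and replicates of a genotype lay within a few TPM of each other. The means were 45.6 ± 1.38 TPM (SD, n = 3) and 12.4 ± 0.926 TPM (SD, n = 3), a log2 fold change of -1.80 (SE 0.060). The 25 expressed genes on each side of NT5E had a median shift of -0.29, so the difference measured against its neighbors was -1.51. In bulk RNA, fewer cells that express a gene and less of its mRNA per cell cannot be told apart. In CAKi-1, WT replicates 1 to 4 had 84.7, 91.6, 107 and 116 TPM, and A4KO replicates 1 to 5 had 69.6, 104, 111, 75.5 and 107 TPM. The genotypes overlapped, and the lowest A4KO libraries were replicates 1 and 4, those that stood apart over all genes. The log2 fold change was -0.11 (SE 0.16) over all 5 A4KO libraries and 0.12 (SE 0.11) with replicates 2, 3 and 5 alone, so its direction depended on which libraries entered.

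ENTPD1, which acts one step before NT5E, was the least abundant enzyme of the set. It lies on chromosome 10 (hg38, 95711779 to 95877266, plus strand, 10 exons, ENSG00000138185.20). In CAKi-1 the WT libraries held 3.71, 3.98, 3.93 and 3.61 TPM, and the A4KO libraries 2.59, 3.19, 3.21, 2.84 and 3.08 TPM. Every A4KO library lay below every WT library, and A4KO replicates 1 and 4 were again the lowest. The means were 3.81 ± 0.176 TPM (SD, n = 4) and 2.98 ± 0.265 TPM (SD, n = 5), a log2 fold change of -0.27 (SE 0.060), or -0.21 (SE 0.045) with A4KO replicates 2, 3 and 5 alone. The expressed genes around ENTPD1 shifted by a median of -0.25, which left -0.027 (SE 0.061) against its neighbors. In 786O the WT libraries held 2.26, 2.08 and 1.99 TPM, and the A4KO libraries 2.93, 2.95 and 3.19 TPM, all 3 A4KO libraries being higher. The log2 fold change was 0.37 (SE 0.049), 0.24 against its neighbors and 0.59 after quantile normalization. Exons of the antisense gene ENTPD1-AS1 cover 40.0% of the ENTPD1 exon bases, the library kit is not stated to keep strand, and reads of the pair cannot be told apart.

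ADA, the enzyme that removes adenosine, was higher in A4KO of both lines. It lies on chromosome 20 (hg38, 44584896 to 44652252, minus strand, 12 exons, ENSG00000196839.14). In CAKi-1 the WT libraries held 34.0, 31.2, 30.8 and 32.9 TPM, and the A4KO libraries 40.7, 38, 39.7, 39.1 and 34.8 TPM. In 786O the WT libraries held 13.7, 12.1 and 12.8 TPM, and the A4KO libraries 17.6, 17.6 and 16.0 TPM. Each A4KO library was above each WT library of its line, although A4KO replicate 5 of CAKi-1 exceeded WT replicate 1 by less than 1 TPM. The log2 fold changes were 0.25 (SE 0.058) in CAKi-1, or 0.21 (SE 0.060) with A4KO replicates 2, 3 and 5 alone, and 0.38 (SE 0.061) in 786O. Neighboring genes were also higher, by a median of 0.10 and 0.18, and against them ADA differed by 0.14 and 0.20. PKIG, on the opposite strand, shares 7.0% of the exon bases of ADA.

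**Figure D1:**
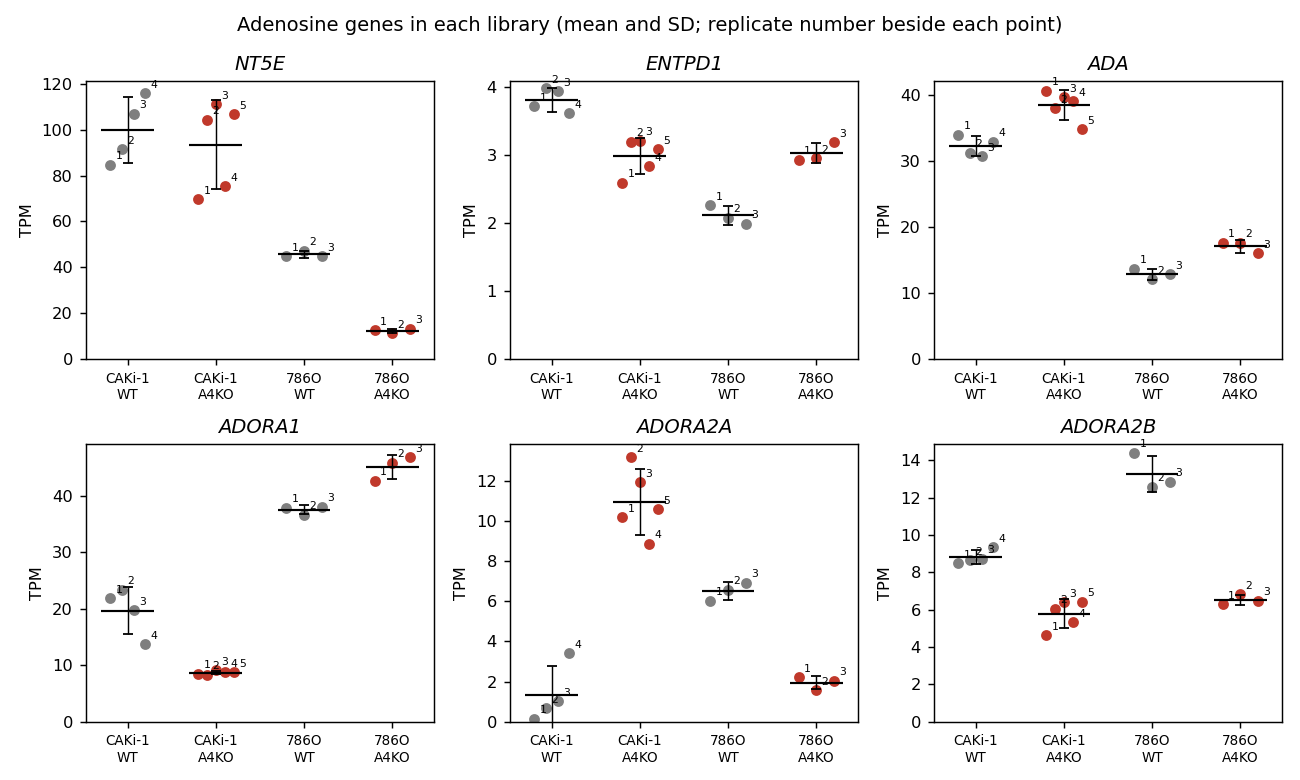
TPM of the 6 genes in every library (vertical axes, from 0), by line and genotype (horizontal axes), with a numbered point for each replicate, a line at the group mean and error bars for the SD (cut at 0 for ADORA2A in CAKi-1 WT). NT5E separates the 786O genotypes (11.4 to 13.2 TPM in A4KO against 44.8 to 47.2 TPM in WT) and overlaps in CAKi-1, while ADORA2A is high in CAKi-1 A4KO and low in CAKi-1 WT, and the other way round in 786O.

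Because NT5E and ADA act on adenosine in opposite ways, their TPM were also set against each other within each library. In 786O the ratio of NT5E to ADA was 3.56 ± 0.322 (SD, n = 3) in WT and 0.728 ± 0.0912 (SD, n = 3) in A4KO, so that NT5E exceeded ADA in every WT library and was below it in every A4KO library. In CAKi-1 the ratio was 3.11 ± 0.490 (SD, n = 4) in WT and 2.45 ± 0.594 (SD, n = 5) in A4KO, with overlapping ranges of 2.49 to 3.52 and 1.71 to 3.07. A4KO replicates 1 and 4 had the lowest ratios (1.71 and 1.93), and replicates 2, 3 and 5, at 2.75, 2.80 and 3.07, lay within the WT range.

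Among the receptors, ADORA1 was the most abundant in every group except CAKi-1 A4KO. It lies on chromosome 1 (hg38, 203090654 to 203167405, plus strand, 4 exons, ENSG00000163485.18). In CAKi-1 the WT libraries held 21.9, 23.3, 19.7 and 13.8 TPM, and the A4KO libraries 8.52, 8.34, 9.11, 8.75 and 8.77 TPM. The A4KO libraries were all lower and lay within 1 TPM of each other, whereas WT replicate 4 was well below the other WT libraries. The log2 fold change was -1.07 (SE 0.13), and -1.06 (SE 0.16) with A4KO replicates 2, 3 and 5 alone. It was -1.22 without WT replicate 4 and -0.98, short of the fold threshold, without WT replicate 2. The neighboring genes shifted by a median of -0.31, and against them the difference was -0.75, also short of it. In 786O the WT libraries held 37.9, 36.6 and 38 TPM, and the A4KO libraries 42.6, 45.8 and 46.8 TPM, so that A4KO was the higher genotype here, with a log2 fold change of 0.26 (SE 0.047). An antisense transcript, ENSG00000234775, overlaps 10.6% of the exon bases of ADORA1.

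ADORA2A had the widest range of TPM over single libraries of the 6 genes, relative to its lowest value, and its direction was opposite in the 2 lines. It lies on chromosome 22 (hg38, 24417879 to 24442357, plus strand, 3 exons, ENSG00000128271.22). In CAKi-1 WT replicates 1 to 4 held 0.156, 0.666, 1.03 and 3.41 TPM, and A4KO replicates 1 to 5 held 10.2, 13.2, 11.9, 8.86 and 10.6 TPM. No A4KO library overlapped with a WT library, A4KO being higher, and the WT libraries differed more among themselves, relative to their mean, than those of any other group. The means were 1.32 ± 1.44 TPM (SD, n = 4) and 10.9 ± 1.66 TPM (SD, n = 5), a log2 fold change of 2.54 (SE 0.32). It was 2.91 without WT replicate 4, 2.27 without WT replicate 1 and 2.66 (SE 0.40) with A4KO replicates 2, 3 and 5 alone, and the neighboring genes shifted by 0.020.

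The 786O WT libraries held 6.02, 6.58 and 6.93 TPM of ADORA2A, and the A4KO libraries 2.22, 1.57 and 2.05 TPM. All 3 A4KO libraries were lower, with a log2 fold change of -1.36 (SE 0.095). Neighboring genes shifted by -0.30, which left -1.05. Exons of the read-through gene SPECC1L-ADORA2A, on the same strand, cover 56.8% of the ADORA2A exon bases and those of ADORA2A-AS1 6.80%. Neither gene is among the values used here, so the ADORA2A values may hold reads of the read-through transcript.

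ADORA2B, the other Gs-coupled receptor, was lower in A4KO of both lines. It lies on chromosome 17 (hg38, 15945130 to 15975746, plus strand, 2 exons, ENSG00000170425.4), with its promoter printed above. In CAKi-1 the WT libraries held 8.47, 8.65, 8.72 and 9.34 TPM, and the A4KO libraries 4.62, 6.05, 6.41, 5.34 and 6.42 TPM. The groups did not overlap, and A4KO replicates 1 and 4 were the lowest, as for NT5E and ENTPD1. The log2 fold change was -0.54 (SE 0.087) over all libraries and -0.43 (SE 0.048) with A4KO replicates 2, 3 and 5 alone. In 786O the WT libraries held 14.4, 12.6 and 12.8 TPM, and the A4KO libraries 6.28, 6.82 and 6.47 TPM, a log2 fold change of -0.92 (SE 0.060) with no overlap. The genes around it shifted by -0.49 in 786O, which left -0.43 against the neighbors, and by -0.023 in CAKi-1.

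The composition of receptor mRNA was summarised in each library as the share of each gene in the summed TPM of ADORA1, ADORA2A and ADORA2B. The fourth adenosine receptor gene, ADORA3, was not among the values of either line. The sums were 29.8 ± 2.56 TPM (SD, n = 4) in CAKi-1 WT, 25.4 ± 2.19 TPM (SD, n = 5) in CAKi-1 A4KO, 57.3 ± 1.33 TPM (SD, n = 3) in 786O WT and 53.5 ± 2.16 TPM (SD, n = 3) in 786O A4KO. The mean sum was lower in A4KO of both lines, with ranges of 55.8 to 58.3 TPM and 51.1 to 55.3 TPM in 786O that did not overlap and ranges of 26.5 to 32.7 TPM and 23.0 to 27.6 TPM in CAKi-1 that did. ADORA2A and ADORA2B, the Gs-coupled pair, held 28.3% to 48.1% of the sum in CAKi-1 WT and 61.9% to 69.7% in CAKi-1 A4KO, where replicates 2, 3 and 5 held 66.0% to 69.7%. They held 34.2% to 35.0% in 786O WT and 15.4% to 16.6% in 786O A4KO. The pair therefore held the larger part of receptor mRNA in all 5 CAKi-1 A4KO libraries and less than ADORA1 in all other libraries.

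In CAKi-1 the share of each receptor gene differed between the genotypes without overlap. ADORA1 held 65.5% ± 9.33 (SD, n = 4) in WT and 34.4% ± 3.05 (SD, n = 5) in A4KO. The share of ADORA2A was 4.74% ± 5.57 (SD, n = 4) in CAKi-1 WT and 42.9% ± 3.42 (SD, n = 5) in A4KO, with 12.9% in the highest WT library. That of ADORA2B went from 29.8% ± 3.85 (SD, n = 4) to 22.7% ± 1.91 (SD, n = 5), with ranges of 26.5% to 35.2% and 19.8% to 24.9%. In 786O the shares of both Gs-coupled receptors were lower in A4KO, ADORA2A with 11.4% ± 0.909 (SD, n = 3) in WT and 3.65% ± 0.731 (SD, n = 3) in A4KO, and ADORA2B with 23.2% ± 1.35 (SD, n = 3) and 12.2% ± 0.446 (SD, n = 3). ADORA1 made up 65.5% of the sum on average in the WT cells of each line. These are shares of mRNA and not of receptor protein.

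**Figure D2:**
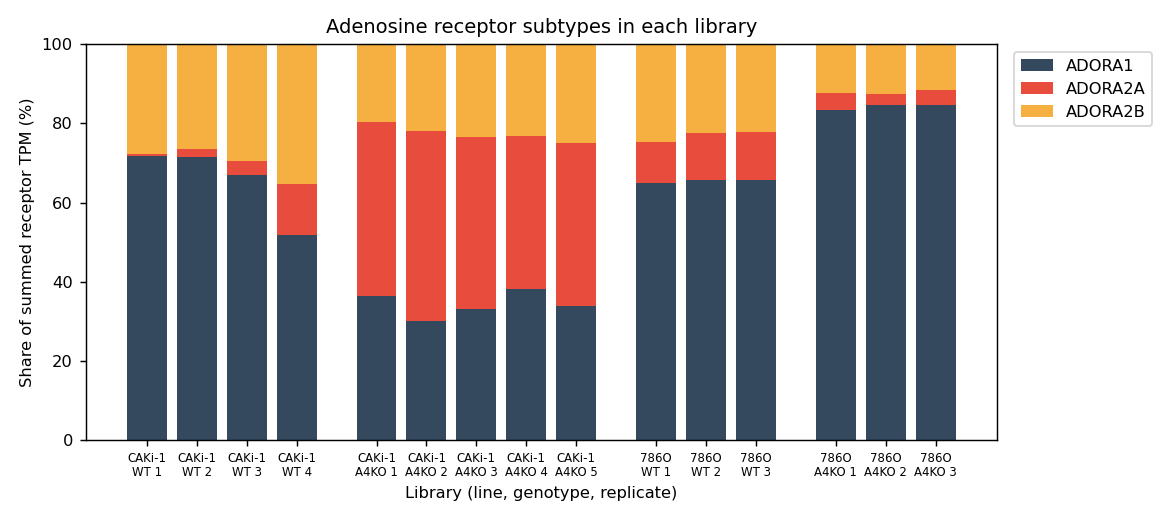
Share (percent, vertical axis from 0 to 100) of ADORA1, ADORA2A and ADORA2B in their summed TPM, with a stacked bar for each library, grouped by line and genotype on the horizontal axis. The Gs-coupled pair holds 61.9% to 69.7% in CAKi-1 A4KO and 15.4% to 16.6% in 786O A4KO, against 28.3% to 48.1% and 34.2% to 35.0% in the respective WT libraries.

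Set beside all genes, 2 of the 6 genes met the fold and adjusted p thresholds in each line. These were ADORA2A (higher) and ADORA1 (lower) in CAKi-1, where 3.33% of all genes were called (2.21% higher and 1.12% lower), and NT5E and ADORA2A (both lower) in 786O, where 7.62% were called (2.43% higher and 5.19% lower). The genotypes did not overlap for 5 of the 6 genes in CAKi-1, all but NT5E, and for 6 of 6 in 786O, against 35.9% and 66.9% of all genes. The median log2 fold change of the 6 genes was -0.19 in CAKi-1 and -0.33 in 786O, against -0.0078 and -0.030 over all genes. The genes were chosen on this contrast, so these counts are no evidence about them. In each line, the called gene nearest to the fold threshold was ADORA1 in CAKi-1 (-1.07) and ADORA2A in 786O (-1.36). The nearest gene not called was ADORA2B, well short of the threshold in CAKi-1 (-0.54) and just short of it in 786O (-0.92).

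**Figure D3:**
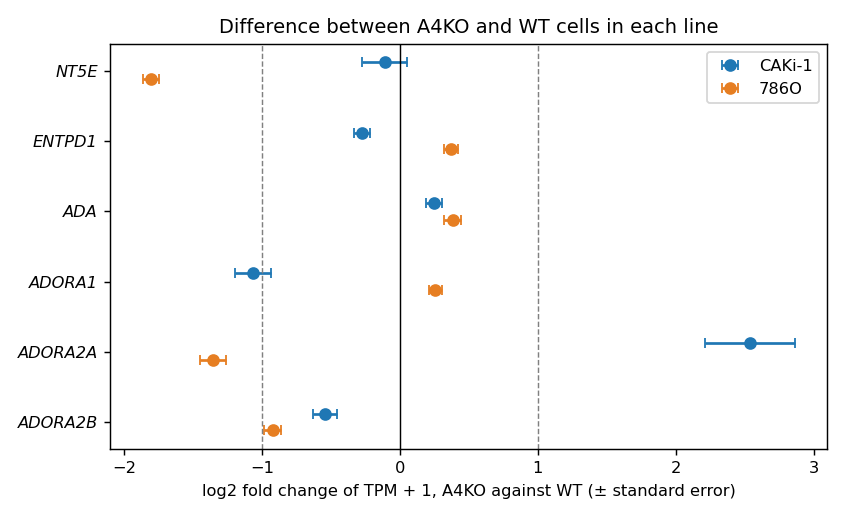
Log2 fold change of A4KO over WT on the log2(TPM + 1) scale (horizontal axis) for the 6 genes in CAKi-1 and 786O, with the SE from limma as error bars and dashed lines at the fold threshold of 1 in both directions. ADORA2A stands at 2.54 in CAKi-1 and -1.36 in 786O, and ADORA1 and ENTPD1 also lie on opposite sides of 0 in the lines.

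The order of levels over the 4 groups differed from gene to gene. The values of the 2 lines were made separately, so levels are set side by side across lines. ADORA1 decreased in the order 786O A4KO, 786O WT, CAKi-1 WT and CAKi-1 A4KO, with no overlap between neighbors in that order. ADORA2A was highest in CAKi-1 A4KO, then in 786O WT, and 786O A4KO (1.57 to 2.22 TPM) overlapped with CAKi-1 WT (0.156 to 3.41 TPM). ADORA2B was highest in 786O WT and then in CAKi-1 WT, and the A4KO groups overlapped below them. NT5E was higher in both overlapping CAKi-1 groups than in 786O WT, and lowest in 786O A4KO. ADA decreased in the order CAKi-1 A4KO, CAKi-1 WT, 786O A4KO and 786O WT without overlap. ENTPD1 was highest in CAKi-1 WT and lowest in 786O WT, the A4KO groups overlapping between them, and its group means of log2(TPM + 1) spanned only 0.63, against 2.91 for NT5E.

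The genes most like each member over the 4 group means were found by the root mean square (RMS) difference of log2(TPM + 1), each gene centred on its own mean. It is a description over 4 points of 2 lines. Nearest to ADORA2A were B3GNT7 (RMS 0.16), PEG10 (0.29) and SIPA1L2 (0.36). PEG10, an imprinted retrotransposon-derived gene, was at 58.6 TPM in CAKi-1 WT, 292 TPM in CAKi-1 A4KO, 202 TPM in 786O WT and 49.7 TPM in 786O A4KO. Among the nearest to NT5E were ROBO3 (0.15) and SLC15A3 (0.17). ROBO3, a guidance receptor, was at 19.6 and 19.3 TPM in CAKi-1 WT and A4KO and at 6.95 and 2.04 TPM in 786O WT and A4KO. Nearest to ADORA2B were JUN (0.057), POLE2 (0.061) and ULBP3 (0.078), and JUN, an AP-1 transcription factor, was at 75.6 and 55.8 TPM in CAKi-1 and at 107 and 60.2 TPM in 786O. Among the nearest to ADORA1 were ELFN2 (0.075) and VEPH1 (0.088), and ELFN2 was at 11.2 and 5.34 TPM in CAKi-1 WT and A4KO and at 25.1 and 29.9 TPM in 786O WT and A4KO. Nearest to ADA were PPFIBP2 (0.035), ARHGEF28 (0.046) and DHX40 (0.060).

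The other genes of the pathway were listed by role in 9 lists of 112 genes and, unlike the 6 genes, were tested. In CAKi-1 1 of 93 measured genes was called, which is 1.08% against 3.33% of all genes, and the median log2 fold change was 0.093 against -0.0078. In 786O 10 of 96 were called, 2 higher and 8 lower, which is 10.4% against 7.62%, with a median of -0.044 against -0.030. By adjusted p alone, 21 genes were higher and 14 lower in CAKi-1, where 39% of all genes passed (17.9% higher and 21.1% lower). In 786O 24 were higher and 35 lower, and 61% of all genes passed (27.5% higher and 33.5% lower). Adjusted p for the genes named next are from limma over all genes of the line.

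The 6 genes of ATP release, the first step of the route, held the only call of CAKi-1. SLC17A9, the vesicular nucleotide transporter, rose there from 5.69 ± 0.463 TPM (SD, n = 4) to 14.1 ± 0.670 TPM (SD, n = 5), a log2 fold change of 1.18 (SE 0.060, limma adjusted p = 3.08e-06). In 786O it went from 49.1 to 87.4 TPM, a log2 fold change of 0.82 that passed the adjusted p (limma, 3.65e-05) and not the fold threshold. In 786O, 1 gene of this list was called higher and 1 lower, and by adjusted p alone 3 were higher and 2 lower. GJA1, which encodes the gap junction protein connexin 43 through whose hemichannels ATP can leave the cell, fell from 29.8 to 4.25 TPM with a log2 fold change of -2.56 (limma adjusted p = 1.69e-06), against -0.083 (limma adjusted p = 0.522) in CAKi-1. PANX2, a pannexin, rose from 2.32 to 6.39 TPM with a log2 fold change of 1.15 (limma adjusted p = 5.89e-06), against 0.35 (limma adjusted p = 0.0622) in CAKi-1.

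Among the other ecto-nucleotidases, 1 of 6 measured genes was called in 786O, lower, and by adjusted p alone 1 was higher and 1 lower. ENPP1, which splits ATP into AMP and pyrophosphate, went from 16.1 to 3.50 TPM there, a log2 fold change of -1.93 (limma adjusted p = 3.16e-06), and was at 2.25 and 2.86 TPM in CAKi-1 WT and A4KO. It acts before NT5E, which was lower in the same libraries. ENPP3 was below 1 TPM in 786O and not among the CAKi-1 values. ENTPD4 and ENTPD6, of the 3 intracellular ENTPD enzymes, had log2 fold changes of -0.21 and -0.30 in 786O. In CAKi-1 they had 0.57 (limma adjusted p = 0.00604) and 0.12 (limma adjusted p = 0.272).

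In the list made for other enzymes that hydrolyse AMP, 8 of 12 genes were measured in CAKi-1 and 10 of 12 in 786O. Those with the highest TPM over both lines together were the cytosolic nucleotidases NT5C2 and NT5C3B. Whether each listed nucleotidase acts on AMP was not examined. NT5C2 had log2 fold changes of -0.28 (limma adjusted p = 0.0257) in CAKi-1 and -0.34 (limma adjusted p = 0.0035) in 786O, and NT5C3B had 0.21 and 0.28. Of the genes that remove adenosine and salvage purines beside ADA, 13 of 14 were measured in each line. APRT, which salvages adenine, went from 258 to 189 TPM in CAKi-1 and from 138 to 194 TPM in 786O, with -0.45 (limma adjusted p = 6.12e-04) in the first and 0.49 (limma adjusted p = 2.29e-04) in the second on the log2 scale. AHCY, which releases adenosine from S-adenosylhomocysteine, had log2 fold changes of -0.13 and 0.38.

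Of the nucleoside transporters, which carry adenosine across the membrane, 6 of 7 were measured in each line. SLC29A1, the main equilibrative transporter ENT1, was at 96.9 and 93.4 TPM in CAKi-1 WT and A4KO, a log2 fold change of -0.053 (limma adjusted p = 0.594). In 786O it was at 56.2 and 28.3 TPM, a log2 fold change of -0.96 (limma adjusted p = 1.17e-05) that lay just short of the fold threshold. SLC29A4 was at 7.09 and 7.60 TPM in CAKi-1 and at 28.2 and 20.3 TPM in 786O. The 4 lists of intracellular ENTPD enzymes, AMP hydrolysis, adenosine removal and transporters held 0 called genes of 32 by limma in 786O, with 21 at an unadjusted p under 0.05, and by adjusted p alone 7 higher and 12 lower. In CAKi-1 all lists but ATP release held 0 called genes of 87 by limma, with 45 at an unadjusted p under 0.05, and by adjusted p alone 19 higher and 13 lower. Over all genes, limma gave an unadjusted p under 0.05 for 10447 of 16188 in 786O and 7878 of 16296 in CAKi-1.

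The other purinergic receptors sense extracellular nucleotides such as ATP, ADP, UTP and UDP. Of 8 measured in 786O, 3 were called, all lower, and 5 were lower by adjusted p alone. P2RY2, a receptor for ATP and UTP, went from 10.9 to 1.73 TPM with a log2 fold change of -2.13 (limma adjusted p = 7.38e-07). P2RY6, a receptor for UDP, went from 19.4 to 7.62 TPM with -1.25 (limma adjusted p = 1.76e-05), and the channel subunit P2RX6 from 7.58 to 1.99 TPM, a log2 fold change of -1.51 (limma adjusted p = 3.46e-04). In CAKi-1 their log2 fold changes were -0.55, -0.29 and 0.51. P2RX4, an ATP-gated channel, was at 12.4 and 25.8 TPM in CAKi-1 WT and A4KO, with a log2 fold change of 0.98 (limma adjusted p = 0.00198). It passed the fold threshold without WT replicate 4 (1.07), A4KO replicate 2 (1.05) or A4KO replicate 3 (1.07), and also at a pseudocount of 0.1 (1.03) and against its neighbors (1.16), and was 0.75 with A4KO replicates 2, 3 and 5 alone. In 786O it was at 20.8 and 15.6 TPM, a log2 fold change of -0.39 (limma adjusted p = 0.0014).

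Downstream of the receptors, 35 of 36 listed G proteins, adenylyl cyclases, cAMP effectors and phosphodiesterases were measured in CAKi-1 and 33 in 786O, where 1 was called, lower. By adjusted p alone, 11 were higher and 11 lower in 786O. PRKAR2B, a regulatory subunit of protein kinase A, went from 8.99 to 1.39 TPM in 786O with a log2 fold change of -2.06 (limma adjusted p = 7.38e-07), against -0.34 (limma adjusted p = 0.0124) in CAKi-1. GNAS, the Gs alpha subunit that ADORA2A and ADORA2B couple to, was at 809 and 873 TPM in CAKi-1 WT and A4KO and at 1092 and 1266 TPM in 786O. GNAI2, a Gi alpha subunit, had -0.23 (limma adjusted p = 0.0040) in CAKi-1 and -0.61 (limma adjusted p = 1.86e-05) in 786O on the log2 scale. Of 11 measured genes known to respond to cAMP, 1 was called higher and 2 lower in 786O, and by adjusted p alone 2 were higher and 4 lower. PPARGC1A, a transcriptional coactivator, went from 1.71 to 9.75 TPM with a log2 fold change of 2.0 (limma adjusted p = 3.44e-05), and the AP-1 genes FOS and FOSB went from 74.7 to 25.7 TPM and from 7.35 to 1.98 TPM, with log2 fold changes of -1.5 and -1.49 and adjusted p of 5.57e-06 and 4.97e-05 by limma. In CAKi-1 FOS had means of 0.740 TPM in WT and 1.21 TPM in A4KO, and FOSB 0.840 and 0.965 TPM. The log2 fold change of FOS there was 0.29 (limma adjusted p = 0.287). With A4KO replicates 2, 3 and 5 alone it was 0.54 (limma adjusted p = 0.0259). PPARGC1A had a log2 fold change of 0.88 in CAKi-1 (limma adjusted p = 0.00146), which passed the fold threshold at a pseudocount of 0.1 (1.72) and against its neighbors (1.02). CREM had -0.42 in CAKi-1 and 0.15 in 786O. Measured against its neighbors FOS differed by -0.74 in 786O and was no longer called, the neighboring genes having shifted by -0.76.

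**Figure D4:**
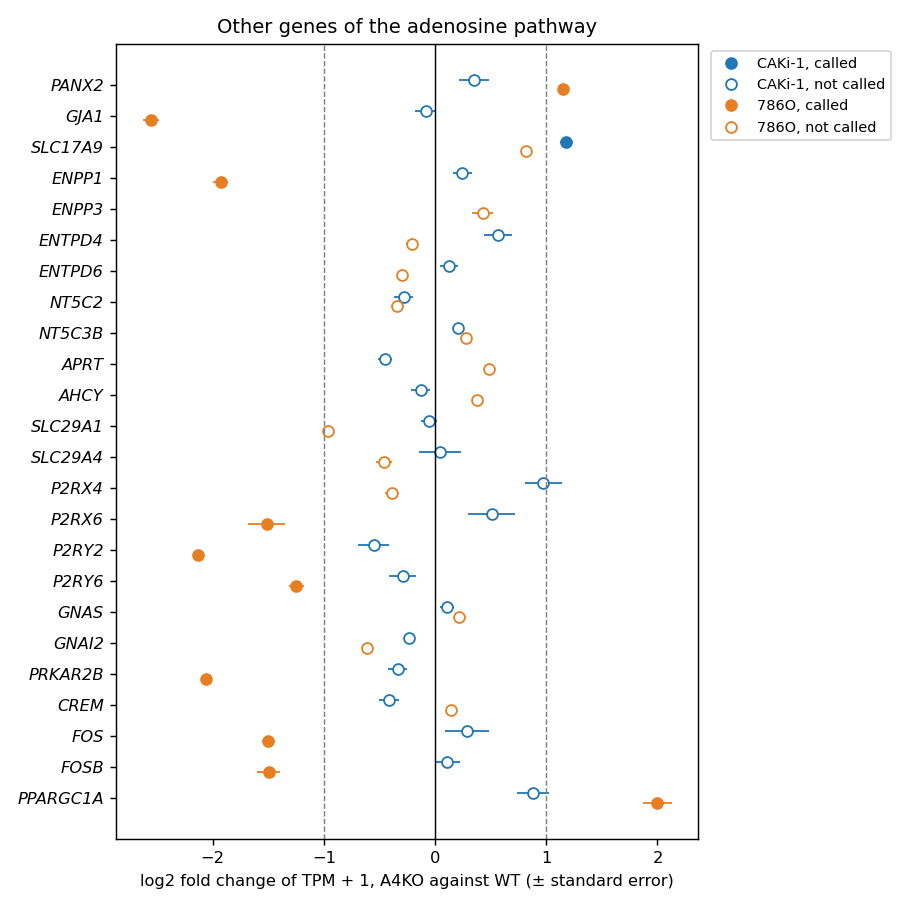
Log2 fold change of A4KO over WT (horizontal axis) for the 24 named genes of the pathway lists (rows, in the order of the lists), with CAKi-1 in blue and 786O in orange, filled points for called genes and open points for the others, error bars for the SE from limma, and dashed lines at the fold threshold of 1 in both directions. Called genes are SLC17A9 in CAKi-1 and 10 genes in 786O, 8 of them lower.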

How the data were processed

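Poly(A) RNA of 9 CAKi-1 libraries (4 WT, 5 A4KO) and 6 libraries of 786O (3 of each genotype) was sequenced as paired ends, and each library was assigned by its GEO label. With Kallisto and hg38 the authors made gene-level TPM, which were deposited for each line apart. The unit was inferred from the values, which are not whole numbers and total 961437 to 973887 in a library. The step from transcripts to genes and the choice of genes are not given in the sources used here. Read depth cannot be had from TPM, so tests for counts were not used.

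From the deposited TPM, log2(TPM + 1) was fitted by genotype, separately for the lines, using lmFit and eBayes of limma 3.58.1 (R 4.3.3, two-sided). Adjustment was by Benjamini-Hochberg over all genes of the line, with no filter. The fit was tested on simulated data. For neighbor-centred values, the 25 nearest expressed genes on either side (a mean log2 value of at least 1, GENCODE release 44 positions) gave a median deviation that was subtracted in each library. The 6 genes, the 9 pathway lists, the 5 marker lists and the alternatives were chosen with earlier results of these data known. Named were the 6 genes, ANGPTL4, the pathway genes called in either line or among the 2 of their list with the highest mean TPM, the 3 genes most like each of the 6 in pattern where its group means spanned at least 1 on the log2 scale, and markers. Some genes under this rule are not reported here. The replicate numbers did not pair the libraries. Alternatives were a pseudocount of 0.1, a minimum mean of 1 TPM, quantile normalization, the trend and robust options of eBayes, a replicate block, neighbor-centred values, each library left out in turn, and CAKi-1 A4KO replicates 2, 3 and 5 alone. Figures were drawn with matplotlib 3.10.9.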

Additional observations from a re-analysis of the deposited data

Results flagged for a closer look

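Of the 6 genes, 3 differed between the genotypes in opposite directions in the lines, with every A4KO library on one side of every WT library in CAKi-1 and on the other side in 786O. The log2 fold change in CAKi-1 minus that in 786O was 3.89 for ADORA2A, -1.32 for ADORA1 and -0.65 for ENTPD1. The same pattern was seen for 4 of the 24 named pathway genes, of which ENPP3 was measured in 786O alone. The differences were 1.37 for P2RX4, 0.77 for ENTPD4, -0.94 for APRT and -0.56 for CREM. The genes around APRT shifted in the same directions as APRT itself, by a median of -0.26 in CAKi-1 and 0.43 in 786O. Measured against its neighbors, ENTPD1 differed by only -0.027 (SE 0.061) in CAKi-1 and by 0.24 (SE 0.042) in 786O. The differences between the lines were not tested. Taking each line alone and either direction, the genotypes did not overlap for 35.9% of all genes in CAKi-1 and 66.9% in 786O. The share of all genes with opposite differences without overlap in both lines was not counted. Whether the pattern is more frequent among the genes listed here than among all genes was therefore not tested.

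ENTPD6 was at 50.8 TPM in CAKi-1 WT replicate 2, far from the other 3 WT libraries relative to their range. Standing apart was judged by Dixon's critical value for the gap to the nearest library over the range of the group. It was the 1 library past that value among 60 groups of 4 or 5 libraries looked at, and a threshold of this kind is passed by chance in about 1 in 20 groups.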

How the results depend on the processing

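The methods state only a nominal depth for all samples and TPM keeps no reads, so the counting error of low values such as ADORA2A in CAKi-1 WT could not be computed per library, and fold changes of low genes grow with a smaller pseudocount. At a pseudocount of 0.1, 1077 genes were called in CAKi-1 (693 higher, 384 lower, against 543) and 2095 in 786O (689 higher, 1406 lower, against 1233), 7 and 16 of them pathway genes (against 1 and 10). The log2 fold change was then 3.54 for ADORA2A in CAKi-1, and -1.70 for ADORA2A, -1.01 for ADORA2B (past the fold threshold) and 0.50 for ENTPD1 in 786O. After quantile normalization, ENTPD1 was at -0.37 in CAKi-1, where GJA1 (0.00081) and SLC29A1 (0.040) reversed from values near 0, and ADORA2A was at -1.16, ADORA2B at -0.78, ENTPD1 at 0.59 and ADA at 0.48 in 786O. It raised the share of higher genes among the 786O calls from 31.9% to 42.7%. Measured against neighbors, ADORA1 (-0.75), ENTPD1 (-0.027) and ADA (0.14) were smaller in CAKi-1, 3 pathway genes were called and ENTPD6 reversed (-0.014). In 786O this gave -1.05 for ADORA2A, -0.43 for ADORA2B, -1.51 for NT5E, 0.24 for ENTPD1, 0.20 for ADA and a reversed -0.052 for GNAS. With libraries left out one at a time, the called genes ranged from 477 to 608 in CAKi-1 and from 1221 to 1243 in 786O. P2RX4 (1.03 and 1.16) and PPARGC1A (1.72 and 1.02) were called in CAKi-1 at a pseudocount of 0.1 and against neighbors, and ENPP3 (1.04) in 786O at a pseudocount of 0.1. The CAKi-1 pathway calls ranged from 1 to 2, since P2RX4 passed the fold threshold without WT replicate 4 (1.07), A4KO replicate 2 (1.05) or A4KO replicate 3 (1.07). SLC29A4 in CAKi-1 ranged from -0.076 to 0.17 with 1 library left out and reversed without A4KO replicate 1 (-0.076) or 4 (-0.037). With A4KO replicates 2, 3 and 5 alone, 412 genes were called in CAKi-1 and SLC29A1 (0.016) and SLC29A4 (-0.23) reversed. NT5E in CAKi-1 ranged from -0.18 to -0.010 with 1 library left out and turned to 0.12 with those 3 alone. The cause of these changes was not tested.

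Same-numbered libraries did not deviate together (correlations of -0.062, 0.12, -0.037 and 0.14 in CAKi-1 and of -0.046, 0.020 and 0.0078 in 786O). With the replicate number as a block, 603 genes were called in CAKi-1 and 1233 in 786O, and the counts of called pathway genes did not change. CAKi-1 A4KO replicate 5 has no WT partner and drops out of the blocked contrast, and leaving it out without a block also gave 603 calls.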
